A study of Mus musculus with 12 samples.

Results

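This account concerns 10 mouse genes that move iron into, through and out of a cell: Trf, Tfrc, Slc11a2 and Slc39a14 for uptake, Fth1, Ftl1 and Ncoa4 for storage, Slc40a1 for export, and Aco1 and Ireb2 for sensing. They were taken as a named list and matched by symbol to the Ensembl identifiers of the deposited counts. All 10 were found among 55487 identifiers, and all 10 passed the filter on low counts, as did 13535 genes in all. RNA sequencing was done on primary hepatocytes, the main cells of the liver, isolated from mice and kept in culture. The 4 groups had 3 libraries each, and every group other than control received FAC. Control cells had neither scavenger nor FAC, and the FAC group had FAC alone. The Lip-1+FAC group was given liproxstatin-1, a scavenger of lipid ROS (reactive oxygen species), before FAC on day 2 in culture, and the MT+FAC group was given Mito-TEMPO, a scavenger of mitochondrial ROS, in the same way. The labels do not spell out FAC, an abbreviation in common use for the iron salt ferric ammonium citrate. Strain, sex and age of the mice, and the doses and duration of treatment, are not given in the sources used here. No group received a scavenger without FAC. Nothing in the labels says that replicates came from separate animals or cultures, so the p-values measure the spread between these libraries, which may be technical.

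Iron in plasma is carried by transferrin, which enters cells with the transferrin receptor and is released in endosomes, where the transporter DMT1 passes it to the cytosol. Iron not bound to transferrin enters hepatocytes through ZIP14. Surplus iron is stored in ferritin shells built of heavy and light chains, is released again when NCOA4 carries ferritin to the lysosome, and leaves the cell through ferroportin. The iron regulatory proteins IRP1 (from Aco1) and IRP2 (from Ireb2) bind a hairpin called the iron-responsive element (IRE) when iron is scarce: in a 3′ untranslated region (UTR), as in the transferrin receptor mRNA, this protects the mRNA, and in a 5′ UTR, as in ferritin and ferroportin mRNAs, it blocks translation. Ferritin protein is therefore controlled largely without a change in its mRNA, and the counts described here measure mRNA only.

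The hairpins are shown because the members that moved furthest, Tfrc and Slc40a1, carry them at opposite ends of their mRNAs. They were sought on the sense strand of the protein-coding transcripts of GENCODE M21 (build GRCm38) as a C, a stem of 5 bases, the loop CAGTGN and 5 bases that pair with the stem (A-T, G-C or G-T), with at least 4 of 6 flanking base pairs. The loop is in capitals, and sequences run 5′ to 3′ in DNA letters over 29 bases.
Fth1, 5′ UTR, chr19:9982732-9982760, plus strand: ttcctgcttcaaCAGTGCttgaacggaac
Ftl1, 5′ UTR, chr7:45459779-45459807, minus strand: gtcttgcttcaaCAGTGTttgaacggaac
Slc40a1, 5′ UTR, chr1:45925465-45925493, minus strand: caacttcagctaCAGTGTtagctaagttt
Tfrc site 1, 3′ UTR, chr16:32631219-32631247, plus strand: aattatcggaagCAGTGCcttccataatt
Tfrc site 2, 3′ UTR, chr16:32631598-32631626, plus strand: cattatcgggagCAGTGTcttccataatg
Tfrc site 3, 3′ UTR, chr16:32631663-32631691, plus strand: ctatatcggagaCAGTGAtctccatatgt
Tfrc site 4, 3′ UTR, chr16:32631710-32631738, plus strand: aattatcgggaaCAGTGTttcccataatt
The 4 Tfrc hairpins were identical to one another at 18 to 25 of 29 bases. The ferritin hairpins matched at 26 of 29, whereas the Slc40a1 hairpin matched that of Fth1 at 13 of 29. Over all genes with a protein-coding transcript, 7 of 21901 (0.032%) held this pattern in a 5′ UTR and 17 (0.0776%) in a 3′ UTR. The pattern was not found in the other 6 members, Slc11a2 among them, which says only that these letters are not in their annotated transcripts.

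Each library held 22991598 to 31683376 counts assigned to genes, except FAC replicate 2, whose file is marked as combined and held 52529278. Counts of a member ranged from 442 (Tfrc in MT+FAC replicate 3) to 1773524 (Trf in FAC replicate 2). All 7 hepatocyte markers were detected, with a summed level, in counts per 1000000 gene counts after scaling (CPM), of 17545 to 18225 in control, 17758 to 18055 in FAC, 13558 to 14480 in Lip-1+FAC and 13920 to 15193 in MT+FAC. Of the 7, 1 was higher and 1 lower in FAC against control. Against FAC, 6 were lower with liproxstatin-1 and 5 with Mito-TEMPO, and against control 7 and 5 were lower. Cyp2e1 was 3.17-fold lower with liproxstatin-1 than with FAC alone. The 8 macrophage markers summed to 7.89 to 11.7 CPM in control and 11.3 to 12.4 in FAC. In the pretreated groups they summed to 10.5 to 12.3 (Lip-1+FAC) and 9.56 to 14.9 (MT+FAC). Of the 7 tested, only Clec4f was called, lower in FAC than in control and higher in MT+FAC than in FAC (1.16). It lay near the floor, with means of 1.10 CPM in control, 0.500 in FAC and 1.17 in MT+FAC. The 4 cholangiocyte markers (Krt19, Krt7, Epcam and Sox9) were all higher in FAC, with a sum of 58.0 to 74.3 CPM against 20.9 to 23.8 in control, 12.4 to 15.6 in Lip-1+FAC and 17.1 to 20.1 in MT+FAC. The 6 endothelial markers summed to 34.6 to 36.0 CPM in control, 33.6 to 34.3 with FAC alone, 24.9 to 26.6 with liproxstatin-1 before FAC and 25.8 to 29.7 with Mito-TEMPO before FAC. Of the 5 tested, Stab2 was called, lower in both pretreated groups against FAC and against control. The 6 stellate cell or fibroblast markers summed to 9.27 to 14.3 CPM in control, 18.9 to 19.6 with FAC alone, 7.90 to 9.19 with liproxstatin-1 before FAC and 9.06 to 9.81 with Mito-TEMPO before FAC. Of the 4 tested in FAC against control, Reln was higher (7.46 to 16.1 CPM) and Dcn was lower (3.55 to 2.35 CPM), so the higher sum came from Reln. The lymphocyte marker Cd3e was at 0 in every library. The part that these cell type markers have in the results below was not tested. In bulk libraries, fewer cells of a type and less RNA per cell cannot be told apart.

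With FAC alone, the 4 uptake genes and the sensor gene Aco1 fell, and the exporter gene Slc40a1 and the ferritin heavy chain gene Fth1 rose. By edgeR's quasi-likelihood test at an adjusted p under 0.05, 7 of the 10 members were called in FAC against control, 2 higher and 5 lower. Over all 13535 genes tested 36.6% were called in that comparison, 17.5% higher and 19.1% lower. The median log2 fold change was -0.08 for the members and -0.006 for all genes tested, and the median absolute change was 0.36 against 0.27. Without the combined library, FAC replicate 2, the number called was 6, Trf being lost, and 30.2% of all genes were called in that fit. The groups did not overlap for 7 members, against 46.2% of all genes.

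**Figure D1:**
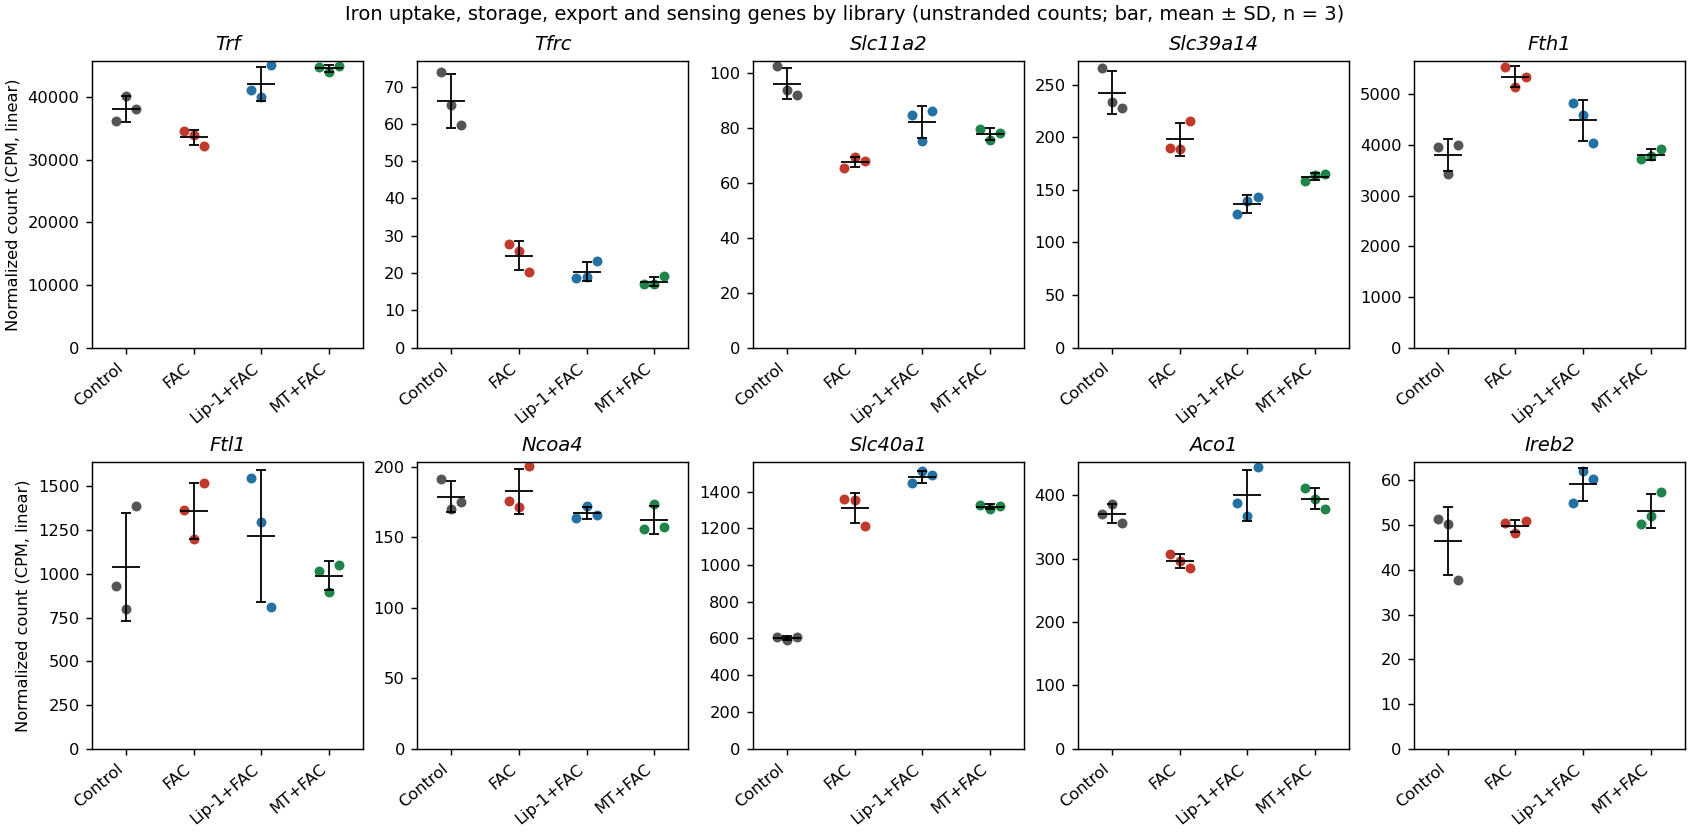
Normalized counts (CPM, linear axes from 0) of the 10 genes in each of the 12 libraries, by group, with the mean and SD of 3 libraries as black bars. All FAC-treated libraries lie below control for Tfrc, Slc11a2 and Slc39a14 and above it for Slc40a1, whereas Fth1 is highest with FAC alone and MT+FAC lies at the control level.

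Tfrc encodes the transferrin receptor (ENSMUSG00000022797, GRCm38 chromosome 16, 32608920 to 32632794). Its level was 74.0, 65.2 and 59.6 CPM in the control libraries, 27.8, 25.9 and 20.2 in FAC, 18.7, 19.1 and 23.2 in Lip-1+FAC, and 17.03, 17.03 and 19.1 in MT+FAC. Every FAC-treated library lay far below the lowest control library. FAC lowered it 2.68-fold (log2 fold change -1.42, SE 0.116, edgeR adjusted p = 7.63e-08). Against control it was 3.26-fold lower with liproxstatin-1 before FAC and 3.75-fold lower with Mito-TEMPO before FAC. In neither pretreated group was it nearer to control than in FAC: MT+FAC stood below FAC by a log2 change of -0.48 (SE 0.119, edgeR adjusted p = 0.00382), with no overlap. Lip-1+FAC differed from FAC by -0.28 (95% interval -0.53 to -0.03), which was not called at an edgeR adjusted p of 0.0673, between 0.00367 and 0.282 over 19 alternatives. Of these, 5 called it: no filter on low counts (-0.28), GC and length offsets without (-0.42) and with (-0.41) a block, and leaving out FAC replicate 3 (-0.40) or Lip-1+FAC replicate 3 (-0.38). In the order control, FAC, Lip-1+FAC, MT+FAC the differences FAC to Lip-1+FAC and Lip-1+FAC to MT+FAC were not called.

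Slc11a2 encodes DMT1, the endosomal iron transporter (ENSMUSG00000023030, chromosome 15, 100387898 to 100425072). It stood at 102.5, 93.9 and 91.9 CPM in control, 65.5, 69.2 and 68.1 in FAC, 84.8, 75.4 and 86.3 in Lip-1+FAC, and 79.7, 75.6 and 78.2 in MT+FAC. The FAC libraries were lowest and the pretreated ones lay between FAC and control, without overlap on either side. FAC lowered it by a log2 change of -0.51 (SE 0.0662, edgeR adjusted p = 1.19e-05). It was higher than in FAC by 0.28 with liproxstatin-1 (edgeR adjusted p = 0.00264) and by 0.20 with Mito-TEMPO (edgeR adjusted p = 0.0208). Against control it remained lower, by -0.23 with liproxstatin-1 and -0.30 with Mito-TEMPO. The Mito-TEMPO rise lost its call with GC and length offsets (0.13) and without FAC replicate 1 (0.17), MT+FAC replicate 1 (0.18) or MT+FAC replicate 3 (0.20), and the Lip-1+FAC difference from control was not called without control replicate 1 (-0.17) or Lip-1+FAC replicate 2 (-0.16). In GENCODE M21, 6.33% of its exonic bases overlap Gm5475 on the opposite strand.

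Slc39a14 encodes ZIP14, which carries iron that is not bound to transferrin, as well as zinc and manganese (ENSMUSG00000022094, chromosome 14, 70303469 to 70351425). Its level was 265.6, 233.9 and 228.3 CPM in control, 189.5, 188.7 and 215.7 in FAC, 126.8, 139.2 and 143.2 in Lip-1+FAC, and 158.7, 163.7 and 165.1 in MT+FAC. The groups were ordered control, FAC, MT+FAC, Lip-1+FAC, with no overlap between neighbours. FAC lowered it by a log2 change of -0.29 (SE 0.0692, edgeR adjusted p = 0.00273). Both scavengers lowered it further, liproxstatin-1 by -0.54 (SE 0.0697, edgeR adjusted p = 8.45e-06) and Mito-TEMPO by -0.28 (SE 0.0693, edgeR adjusted p = 0.00329) against FAC. In Lip-1+FAC it was 1.78-fold lower than in control. MT+FAC and Lip-1+FAC differed by 0.25 (95% interval 0.11 to 0.40, edgeR adjusted p = 0.082), which was not called, although DESeq2 called it at an adjusted p of 0.0388 (0.00813 to 0.365 over 19 alternatives).

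Trf encodes transferrin, the plasma iron carrier that hepatocytes secrete (ENSMUSG00000032554, chromosome 9, 103204001 to 103230444). It was 36133, 40188 and 38052 CPM in control, 34530, 33966 and 32199 in FAC, 41203, 39957 and 45102 in Lip-1+FAC, and 44757, 44049 and 45039 in MT+FAC. The FAC libraries lay below all others, and the MT+FAC libraries lay above all control libraries. FAC lowered it by a log2 change of -0.18 (SE 0.061, edgeR adjusted p = 0.0245). Both scavenger groups stood above FAC, by 0.33 with liproxstatin-1 (SE 0.061, edgeR adjusted p = 0.000358) and by 0.41 with Mito-TEMPO (SE 0.0611, edgeR adjusted p = 4.34e-05). MT+FAC was also above control by 0.23 (edgeR adjusted p = 0.0137), while Lip-1+FAC differed from control by 0.14 (95% interval 0.01 to 0.27), which was not called, although 5 of 19 alternatives called it. In GENCODE M21, 63.5% of its exonic bases overlap Gm20425, for which no count was used here. The fall with FAC was not called in fits with offsets for GC content and transcript length (-0.08), with only the compared libraries (-0.17), or without control replicate 2 (-0.14), control replicate 3 (-0.19), FAC replicate 2 (-0.19) or FAC replicate 3 (-0.15). The rise of MT+FAC over control was not called without control replicate 1 (0.19). The Lip-1+FAC difference from control ranged from 0.09 to 0.23 over 19 alternatives. It was called, among others, without control replicate 2 (0.19) and with GC and length offsets.

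Fth1 encodes the ferritin heavy chain, which oxidizes iron as it enters the shell (ENSMUSG00000024661, chromosome 19, 9980598 to 9985098). It stood at 3969, 3432 and 4010 CPM in control, 5552, 5138 and 5349 in FAC, 4830, 4590 and 4045 in Lip-1+FAC, and 3722, 3786 and 3928 in MT+FAC. The FAC libraries were above all others, the Lip-1+FAC libraries lay between FAC and control, and the MT+FAC libraries fell within the control range. FAC raised it 1.41-fold (log2 fold change 0.49, SE 0.0705, edgeR adjusted p = 3.14e-05). Against FAC it was lower by -0.25 with liproxstatin-1 (SE 0.0704, edgeR adjusted p = 0.00833) and by -0.49 with Mito-TEMPO (SE 0.0705, edgeR adjusted p = 3.28e-05). MT+FAC differed from control by 0.00 (95% interval -0.14 to 0.15), and Lip-1+FAC remained above control by 0.24 (edgeR adjusted p = 0.0157). The difference of Lip-1+FAC from FAC lost its call when Lip-1+FAC replicate 3 was left out (-0.18), and its difference from control was not called without control replicate 2 (0.17), Lip-1+FAC replicate 1 (0.19) or Lip-1+FAC replicate 2 (0.23).

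Ftl1 encodes the ferritin light chain, which helps the iron core form (ENSMUSG00000050708, chromosome 7, 45457944 to 45459884). In the unstranded counts it was 930, 797 and 1390 CPM in control, 1364, 1198 and 1521 in FAC, 1550, 1297 and 808 in Lip-1+FAC, and 1019, 896 and 1053 in MT+FAC. The libraries of control and of Lip-1+FAC spread widely, and all groups overlapped except FAC and MT+FAC. MT+FAC against FAC gave a log2 fold change of -0.46 (95% interval -1.07 to 0.15, edgeR adjusted p = 0.205, 0.00123 to 0.555 over 19 alternatives) and was called with only the compared libraries (-0.46). None of the 6 comparisons was called in the fit over all libraries: FAC against control gave a log2 fold change of 0.39 (95% interval -0.22 to 0.99, edgeR adjusted p = 0.296). That change ranged from 0.23 to 0.66 over 19 alternatives. These counts hold only part of the gene's fragments. In GENCODE M21, 34.6% of the exonic bases of Ftl1 overlap Gm10252 on the opposite strand or Gm22133, and the unstranded column held 19.7 to 30.2% of the sum of the 2 stranded columns, against 97.3 to 100% for the other 9 members.

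Counted as that sum, Ftl1 was 3415, 3189 and 4228 CPM in control, 4613, 4376 and 4784 in FAC, 5291, 4776 and 3717 in Lip-1+FAC, and 4164, 3799 and 4129 in MT+FAC. The FAC libraries then lay above all control libraries, and the coefficient of variation in control was 15.1% against 30% in the unstranded counts. FAC against control gave 0.35 (SE 0.121, edgeR adjusted p = 0.0416) and Lip-1+FAC against control gave 0.35 (edgeR adjusted p = 0.0483), both called. MT+FAC differed from FAC by -0.19 (edgeR adjusted p = 0.241), which was not called. In the summed columns a fragment over both Ftl1 and Gm10252 is counted to each gene, so the genes cannot be told apart there. In the unstranded column Gm10252 held 0 to 11 counts per library, against 69938 to 213056 in its summed stranded columns. How the shared fragments divide was not tested. Fragments could also be split with the near-identical copies Ftl1-ps1 and Ftl1-ps2, at 17.1 and 4.48 CPM in control. With both copies added to the unstranded count, Ftl1 was 0.40 in FAC against control and not called.

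**Figure D2:**
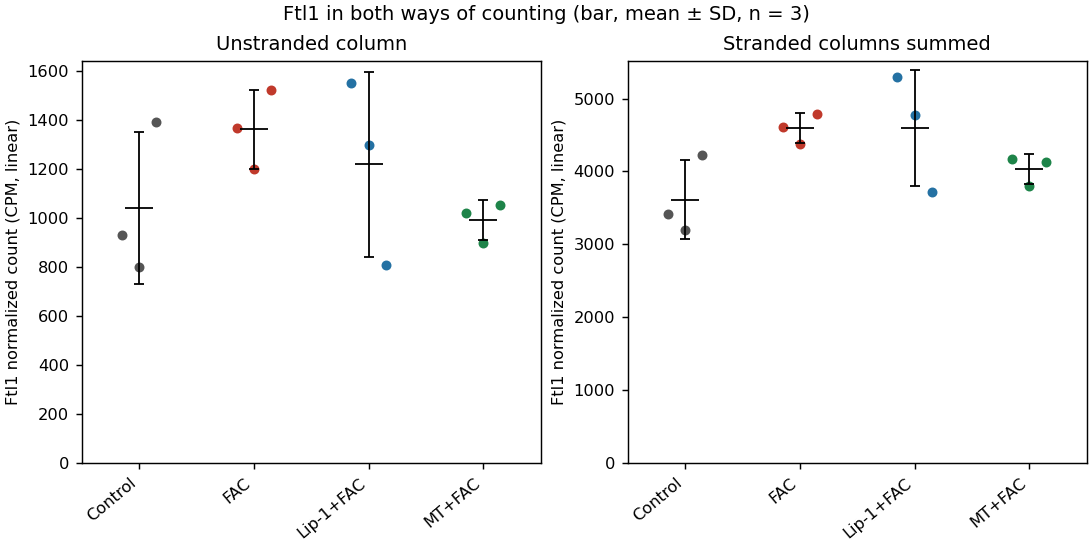
Ftl1 normalized counts (CPM, linear axes from 0) in each library by group, from the unstranded column at left and from the sum of both stranded columns at right, with mean and SD of 3 libraries. The axes differ in scale, and the control and FAC libraries overlap at left but not at right.

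Ncoa4 encodes the receptor that carries ferritin to the lysosome (ENSMUSG00000056234, chromosome 14, 32159865 to 32179855). Its level was 191.2, 169.9 and 175.3 CPM in control, 175.8, 171.5 and 201 in FAC, 163.9, 172.5 and 165.9 in Lip-1+FAC, and 155.8, 174 and 157.7 in MT+FAC. All groups overlapped, and no comparison was called. The FAC difference from control was 0.03 (95% interval -0.11 to 0.17). The interval for MT+FAC against FAC was -0.31 to -0.03, around -0.17 (edgeR adjusted p = 0.0562, 0.00535 to 0.292 over 19 alternatives), and 8 of the 19 alternatives called it, among them those without FAC replicate 2 (-0.21) and without MT+FAC replicate 2 (-0.23). With GC and length offsets it was called lower in both pretreated groups, by -0.25 and -0.26 against FAC and by -0.22 and -0.23 against control.

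Slc40a1 encodes ferroportin, the iron exporter (ENSMUSG00000025993, chromosome 1, 45908068 to 45926523). It stood at 606, 591.7 and 610.5 CPM in control, 1361, 1357 and 1214 in FAC, 1447, 1511 and 1488 in Lip-1+FAC, and 1329, 1304 and 1321 in MT+FAC. Every FAC-treated library was above every control library by a wide margin, and Lip-1+FAC was highest. FAC raised it 2.17-fold (log2 fold change 1.12, SE 0.0539, edgeR adjusted p = 1.12e-10). The rise over control was 2.46-fold with liproxstatin-1 before FAC and 2.19-fold with Mito-TEMPO before FAC. Lip-1+FAC was above FAC by 0.18 (SE 0.0532, edgeR adjusted p = 0.013), a call lost with GC and length offsets (0.03) and without FAC replicate 3 (0.13). MT+FAC and FAC differed by 0.01 (95% interval -0.10 to 0.12).

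The ratio of Slc40a1 to Tfrc counts within a library does not depend on how libraries are scaled. It was 8.19, 9.08 and 10.2 in control, 49, 52.4 and 60 in FAC, 77.4, 79.3 and 64.1 in Lip-1+FAC, and 78.0, 76.6 and 69.2 in MT+FAC. The lowest pretreated library was above the highest FAC library, and the pretreated groups overlapped. The geometric mean rose 5.87-fold from control to FAC, 1.37-fold from FAC to Lip-1+FAC and 1.39-fold from FAC to MT+FAC. The exact two-sided permutation p was 0.1 for each of these pairs, the smallest that 3 against 3 libraries allows (0.12 adjusted over 6 pairs), so this test cannot pass 0.05.

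**Figure D3:**
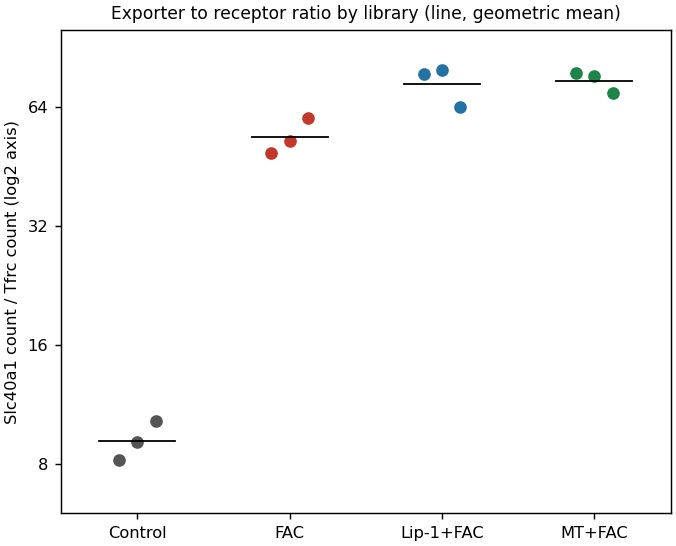
Ratio of Slc40a1 to Tfrc counts in each of the 12 libraries, by group, on a log2 axis, with lines at the geometric means. Control spans 8.19 to 10.2, FAC alone spans 49 to 60, and both pretreated groups together span 64.1 to 79.3.

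Aco1 encodes IRP1, which is a cytosolic aconitase when it holds an iron-sulfur cluster and binds IREs when it does not (ENSMUSG00000028405, chromosome 4, 40143081 to 40198338). Its level was 370.3, 386.1 and 356.4 CPM in control, 307.5, 296.9 and 285.2 in FAC, 387.7, 366.9 and 444.3 in Lip-1+FAC, and 411.9, 393.9 and 378.6 in MT+FAC. The FAC libraries lay below all others, while the pretreated and control libraries overlapped. FAC lowered it by a log2 change of -0.32 (SE 0.0656, edgeR adjusted p = 0.000837). It was above FAC by 0.43 with liproxstatin-1 (SE 0.0656, edgeR adjusted p = 4.86e-05) and by 0.41 with Mito-TEMPO (edgeR adjusted p = 8.32e-05). Against control it differed by 0.11 in Lip-1+FAC (95% interval -0.03 to 0.25) and by 0.09 in MT+FAC (-0.05 to 0.23), neither called.

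Ireb2 encodes IRP2, which is degraded when iron is plentiful (ENSMUSG00000032293, chromosome 9, 54863789 to 54912530). It was 51.4, 50.2 and 37.7 CPM in control, 50.4, 48.2 and 50.9 in FAC, 55.0, 62.1 and 60.4 in Lip-1+FAC, and 50.3, 52.0 and 57.5 in MT+FAC. The Lip-1+FAC libraries lay above all control and FAC libraries, and the other groups overlapped. FAC differed from control by 0.10 (95% interval -0.10 to 0.31), which was not called. Lip-1+FAC was above FAC by 0.25 (SE 0.0966, edgeR adjusted p = 0.0493), and 13 of 19 alternatives did not call it, with adjusted p from 0.0142 to 0.214 over the 19. These 13 included leaving out any one FAC library (0.23 to 0.27), Lip-1+FAC replicate 2 (0.22) or Lip-1+FAC replicate 3 (0.24). Lip-1+FAC was above control by 0.35 (SE 0.0974, edgeR adjusted p = 0.0114), a call lost with GC and length offsets (0.16) and without control replicate 3 (0.22).

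**Figure D4:**
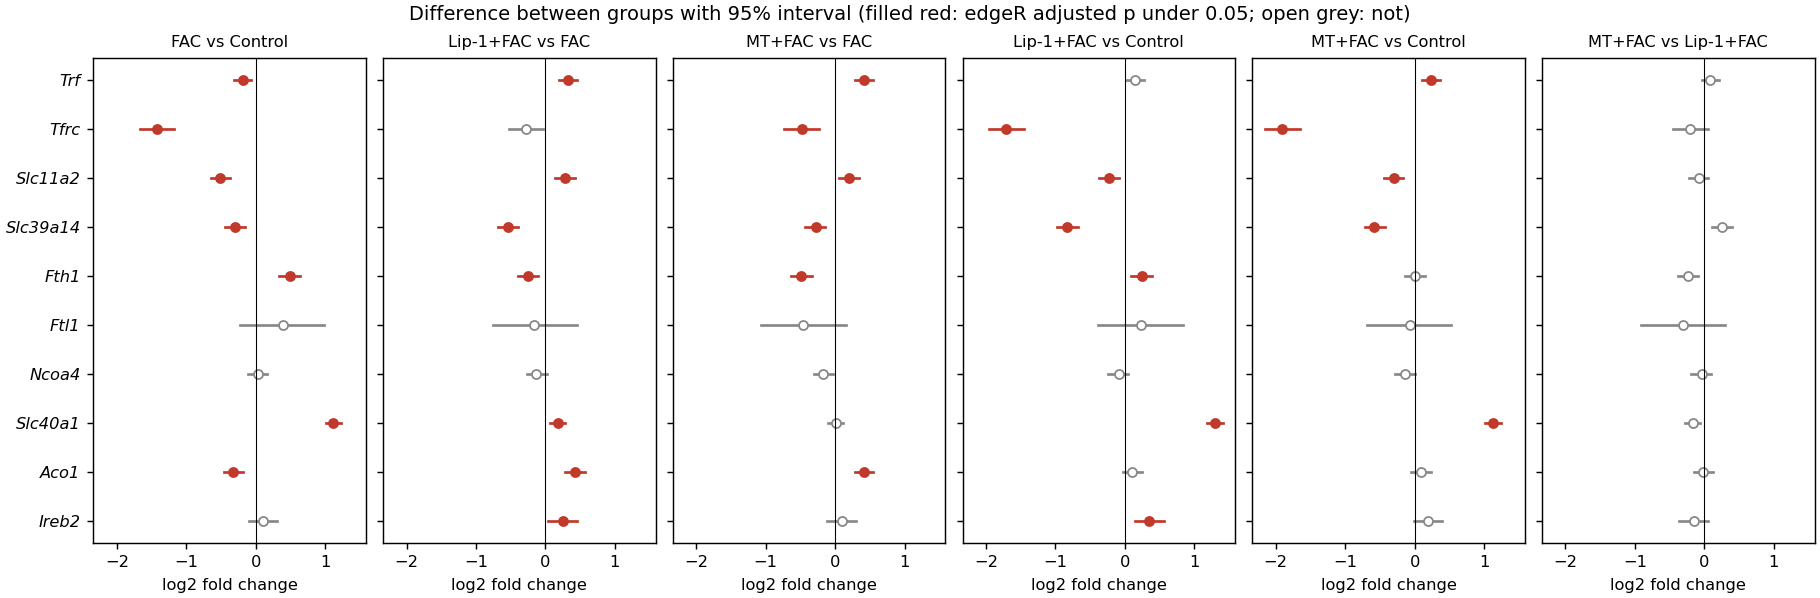
Log2 fold changes of the 10 genes in the 6 comparisons with 95% intervals from edgeR, filled points being called at an adjusted p under 0.05. Tfrc (-1.42) and Slc40a1 (1.12) have the largest changes in FAC against control, and no gene is called in MT+FAC against Lip-1+FAC.

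Set against FAC alone, 7 members were called with liproxstatin-1 (5 higher and 2 lower) and 6 with Mito-TEMPO (3 higher and 3 lower). Over all genes tested 39.9% were called in Lip-1+FAC against FAC (20.7% higher and 19.2% lower) and 40.9% in MT+FAC against FAC (21.2% higher and 19.7% lower). The groups did not overlap for 7 members in each of these comparisons, against 50.8% and 52.9% of all genes. Both comparisons share the FAC libraries, which are also those of FAC against control. Against control, 6 members were called with liproxstatin-1 (3 higher and 3 lower) and 5 with Mito-TEMPO (2 higher and 3 lower), where 30.2% (15.4% higher and 14.8% lower) and 19.8% (9.71% higher and 10.1% lower) of all genes were called. The groups did not overlap for 6 and 5 members, against 43.3% and 38.2% of all genes. All comparisons with control share the same 3 control libraries. The members' median log2 fold change against FAC was 0.03 with liproxstatin-1 and -0.08 with Mito-TEMPO, and 0.001 and -0.001 over all genes. Without the combined library, FAC replicate 2, 6 members were called with liproxstatin-1 and 7 with Mito-TEMPO against FAC, where 34% and 34.5% of all genes were.

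Between the scavengers, MT+FAC against Lip-1+FAC, no member was called by edgeR, and 1.34% of all genes were (0.465% higher and 0.879% lower). At an unadjusted p under 0.05 there were 3 of the 10, where 13.3% of all genes were, namely Slc40a1 at -0.17 (95% interval -0.28 to -0.06), Fth1 at -0.24 (-0.38 to -0.09) and Slc39a14 at 0.25 (0.11 to 0.40). The libraries of both groups did not overlap for these 3, against 19.8% of all genes. Slc39a14 was called by DESeq2 (0.25), with only the compared libraries (0.25) and with no filter on low counts (0.26). Fth1 was called with no filter (-0.23) and without Lip-1+FAC replicate 3 (-0.31). Among the others the interval was -0.45 to 0.06 for Tfrc, -0.15 to 0.12 for Aco1 and -0.91 to 0.30 for Ftl1, so a difference of any size within these bounds could not be told from none.

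Per kilobase of exon, Trf stood highest in control with 11483 CPM per kb, followed by Fth1 with 1096 ± 93 (SD, n = 3). Lengths are the merged exons of all annotated transcripts of a gene, so they can exceed that of its main mRNA. They were 3469 bases for Fth1, 1340 for Ftl1, 4496 for Aco1 and 9000 for Slc40a1, and the order of genes depends on them. Ftl1 stood at 775 ± 232 in the unstranded counts, which hold only part of its fragments. In the summed stranded columns the order of the ferritin genes turned, with Ftl1 at 2695 ± 408 and Fth1 at 1003 ± 87.4. Fragments of Ftl1 and Gm10252 cannot be told apart there. Without division by length the control libraries of the ferritin genes overlapped in those columns. They stood at 3622, 3133 and 3688 CPM for Fth1 and 3415, 3189 and 4228 for Ftl1. Aco1 was at 82.5 ± 3.31 and Slc40a1 at 67.0 ± 1.09. Before division by length the order of these genes was the reverse, with 371 CPM for Aco1 and 603 for Slc40a1. Slc39a14 (23), Ncoa4 (19.1), Slc11a2 (15.1), Tfrc (10.7) and Ireb2 (4.90) followed. On this scale the control level of the exporter gene Slc40a1 was above those of the transporter and receptor genes Slc39a14, Slc11a2 and Tfrc.

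Beyond the members, a list of 54 other iron genes was drawn up, of which 53 were in the files and 44 were tested. In FAC against control 7 were higher, 14 were lower and 23 were not called, a share of 47.7% against 36.6% over all genes. By role, 4 of the 6 tested ferrireductase and ferroxidase genes fell and none rose, where 19.1% of all genes were called lower. Of the genes for transferrin and its receptors 2 of 4 fell, of those for other iron uptake 1 rose and 2 fell of 5, and of those for heme and hemoglobin uptake 2 rose and 3 fell of 8. For ferritin delivery, turnover and export 2 of 8 rose and none fell, and for control of the IRPs, ferroportin and DMT1 2 rose and 3 fell of 13. Steap4, a ferrireductase, fell from 54.7 ± 5.40 to 14.7 ± 0.653 CPM (SD, n = 3; log2 fold change -1.90, SE 0.109, edgeR adjusted p = 1.76e-09). In Lip-1+FAC and MT+FAC it was higher than in FAC by 1.77 and 1.93. Steap2 (-0.57) and Cp (-0.74), which encodes the plasma ferroxidase ceruloplasmin, also fell and were higher in both pretreated groups than in FAC, Cp by 1.27 and 1.17 and Steap2 by 1.10 and 0.88. Against control, Steap4 differed by -0.13 and 0.03, neither called, whereas Cp was higher in both pretreated groups (0.53 and 0.43) and Steap2 was higher with liproxstatin-1 (0.52).

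The largest remaining falls of genes at 5 CPM or more were Timd2, a receptor for ferritin (-1.35), and Hp, the plasma binder of hemoglobin (-0.77). Next came Exoc6, a part of the exocyst complex that helps recycle the transferrin receptor (-0.60). All 3 were higher in both pretreated groups than in FAC, unlike Cyb561a3. The largest rises at that level were Bach1, a heme-sensing repressor (1.14), Slc48a1, a heme transporter (0.81), Pcbp2, an iron chaperone (0.60), and Lrp1, a receptor that takes up heme bound to hemopexin (0.43). With GC and length offsets Lrp1 was 0.02 and not called. Against FAC, Bach1 and Pcbp2 were lower in both pretreated groups and Lrp1 was lower with liproxstatin-1 (-0.36). Slc48a1 was instead higher with liproxstatin-1 (0.24), with 301 CPM in control, 530 with FAC alone, 626 with liproxstatin-1 before FAC and 569 with Mito-TEMPO before FAC. The small rises of Mcoln1 and Cul1, both 0.16, were not called in several alternatives.

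Hamp encodes hepcidin, the hormone that makes cells take ferroportin down from their surface. Its level was 44.3 ± 12.6 CPM in control and 25.3 ± 7.91 in FAC (SD, n = 3), and 5.75 with liproxstatin-1 and 7.47 with Mito-TEMPO before FAC. It fell with FAC by -0.82, a call lost with only the compared libraries (-0.80), without control replicate 3 (-0.62) and without FAC replicate 1 (-0.80), and further in the pretreated groups, by -2.12 and -1.75 against FAC. Hfe, a partner of the transferrin receptors, fell by -0.24 with FAC and was above FAC by 0.50 and 0.49. Tfr2, the sensing receptor of hepatocytes, differed by 0.00 with FAC, which was not called, and was lower in the pretreated groups by -0.34 and -0.24. Fbxl5, which marks IRP2 for degradation, differed by -0.02 with FAC, which was not called, and rose by 0.57 and 0.48 in the pretreated groups against FAC. Slc39a8, a transporter related to Slc39a14, and Steap3, the endosomal ferrireductase, were not called in any comparison, with 0.15 and -0.24 in FAC against control.

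**Figure D5:**
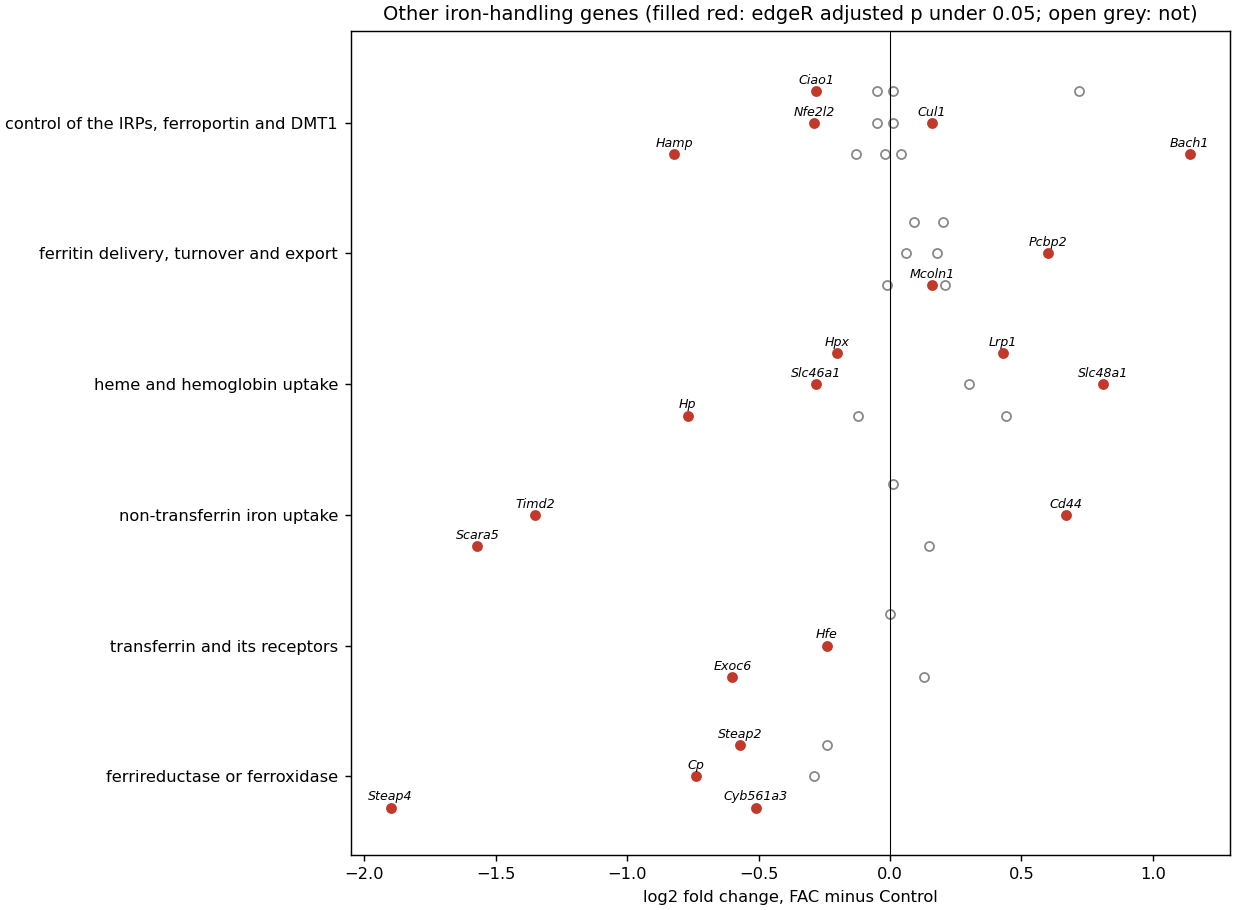
Log2 fold changes of the tested genes of the wider iron list, by role, in FAC against control, filled points being called by edgeR at an adjusted p under 0.05. The ferrireductase and ferroxidase group holds 4 falls and no rise, with Steap4 lowest at -1.90.

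All 10 mRNAs reported here from a list of IRE-bearing mRNAs, members included, were tested. The list follows general knowledge of these mRNAs, and the search above found its pattern in 5 of the 10, namely Alas2, Fth1, Ftl1, Slc40a1 and Tfrc. With FAC, 5 of the 10 were called (3 higher and 2 lower), where 36.6% of all genes were. Of those listed with a 5′ IRE, Fth1 and Slc40a1 rose with FAC and 3 were not called: Ftl1 (0.39), Alas2 (0.34) and Epas1 (-0.14). Of those listed with a 3′ IRE, Tfrc and Slc11a2 fell, Cdc42bpa rose by 0.51 (edgeR adjusted p = 0.000124), and Cdc14a (0.33) and Pfn2 (0.05) were not called. Epas1, which encodes the hypoxia-inducible factor HIF-2 alpha, was lower in Lip-1+FAC and MT+FAC than in FAC, by -0.49 and -0.41. Alas2, which encodes the erythroid enzyme of heme synthesis, was lower by -0.86 and -0.82, and Cdc42bpa was higher by 0.39 and 0.24.

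The genes whose levels ran most like those of Tfrc over the 12 libraries, among 8999 protein-coding genes, were Sesn1 (Pearson r 0.978), Pex11a (0.957) and Slc7a2 (0.956). For Slc40a1 they were Ppfibp2 (0.990), Gclc (0.986) and Slc48a1 (0.984). These are descriptions over libraries that share 4 groups and so mostly repeat the contrast of control with the rest.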

How the data were processed

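RNA from 12 libraries of primary mouse hepatocytes was sequenced as 100-base pairs from 10 ng of input, per the labels' protocols. Reads were aligned with STAR to GRCm38, per the submitters' processing notes; versions and the annotation used are not given in the sources used here. The deposited values are raw counts per gene in an unstranded column and 2 stranded columns, and the unstranded counts were used. Summary lines that name no gene were left out; 75.8 to 81.2% of fragments were assigned to genes, and 5.16 to 5.71% were ambiguous, as are fragments over overlapping genes. The file of FAC replicate 2 carries a mark that it was combined, without saying from what.

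Counts were tested with edgeR 4.0.16 (R 4.3.3, limma 3.58.1): TMM scaling, a filter on low counts by group, 4 group means and robust quasi-likelihood tests, with Benjamini-Hochberg adjustment over 13535 genes and calls at an adjusted p under 0.05. CPM are scaled by TMM. The biological coefficient of variation was 9.71%. The procedure was tested on simulated data. Groups were taken from sample titles. Replicates of a group correlated at r of 0.986 to 0.991 and differed beyond sampling noise. Alternatives were other scalings and filters, DESeq2 1.42.0, fewer libraries, a replicate block, GC and length offsets, summed stranded columns, thinning, summed pseudogene copies and leaving out each library.

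The members and lists were chosen with earlier results of these data known. Besides the members, the text names, of the iron list, genes whose control and FAC libraries did not overlap, called in that comparison, with mean CPM not under 5 (the 6 largest rises and the 6 largest falls), Hamp, Hfe, Tfr2, Fbxl5, Cp, Slc39a8 and Steap3, the tested IRE-bearing mRNAs, and the 3 genes most correlated with Tfrc and with Slc40a1. Symbols, positions and transcripts come from GENCODE M21, where 55227 identifiers were found. Some listed genes are not reported here.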

Additional observations from a re-analysis of the deposited data

How the results depend on the processing

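Over 19 alternatives per comparison, the number of members called stayed within 1.5 times the reported one in every comparison except MT+FAC against Lip-1+FAC. There it was 0 as reported, 2 with no filter on low counts, 1 with only the compared libraries, 1 with DESeq2, and 0 to 1 on leaving out a library. The cause was not tested. The ratio of Slc40a1 to Tfrc in that comparison, 0.02 on the log2 scale, ranged from -0.07 to 0.08 on leaving out a library.

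No pairing of libraries by replicate number was seen. Deviations of same-numbered libraries from their group means correlated at -0.249 to 0.164, with a median of 0.014 against -0.02 for other pairs. The best correlate had the same number in 14 of 36 cases. With 3 libraries a group, this check cannot tell whether libraries shared an animal or a batch. With the replicate block 7 members were called in FAC against control, 6 in Lip-1+FAC against FAC (Ireb2 lost), 6 in MT+FAC against FAC, 0 between scavengers and, against control, 6 with liproxstatin-1 and 5 with Mito-TEMPO.

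Values that changed sign were not called. In FAC against control, GC and length offsets, with or without the replicate block, gave Fbxl5 0.01. Leaving out each library in turn gave -0.04 to 0.08 for Ncoa4, -0.06 to 0.21 for Pfn2, -0.03 to 0.18 for Ireb2 and -0.01 to 0.54 for Cdc14a. In Lip-1+FAC against FAC, Ftl1 was 0.16 and 0.15 with offsets (with and without the block) and -0.37 to 0.07 on leaving out a library. In MT+FAC against FAC, Slc40a1 was -0.09 with offsets, -0.01 with a mean CPM filter, summed stranded columns or thinning, and -0.04 to 0.04 on leaving out a library. In MT+FAC against Lip-1+FAC, Aco1 ranged from -0.08 to 0.06 on leaving out a library. In MT+FAC against control, Ftl1 was 0.24 and 0.23 with offsets, 0.16 with summed stranded columns and -0.23 to 0.20 on leaving out a library.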
